A study of Mus musculus with 55 samples.

Results

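Rxrg encodes retinoid X receptor gamma, and its CpGs were followed in mouse liver from shortly before birth to adulthood. The gene lies on the forward strand at chr1:169528515-169569754 (mm9, GENCODE vM1) and has a first start site and an alternative one 19925 bp downstream. Its members were all 10 Rxrg CpGs among the 166 CpGs measured by locus-specific bisulfite sequencing (LSBS), at chr1:169548431-169548578 around the alternative start. To these were added the 12 Rxrg CpGs among the 271325 kept by the study from reduced representation bisulfite sequencing (RRBS), taken from 5 kb upstream of the first start site to the gene end. The study had left out RRBS CpGs that were under 10% methylated in all samples. The LSBS locus was selected on its fall in methylation between E18.5 and 6 mo. The levels at those 2 ages, and the steps that begin or end at them, are therefore given as descriptions with no test. Tests were made between the ages that this choice did not use, between the sexes, and on the RRBS CpGs.

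All samples were livers of mice of the strain C57BL/6 by the labels and C57BL/6J by the study's methods, and the labels give standard conditions for all of them. In LSBS, chosen loci are amplified from bisulfite-treated DNA and sequenced, and 31 livers were covered, with 5 at E18.5 (the embryonic day, shortly before birth), 5 at postnatal day 1 (P1), 4 at P5, 4 at P10, 3 at P15, 5 at P20 and 5 at 6 mo. Both sexes were present at every LSBS age, with 1 male each at P5, P10 and P15. RRBS, which reads CpGs close to the cutting sites of MspI, covered 5 livers at E18.5, 9 at P1 and 10 at 9 wk, the 9 wk mice being males and the sex of the younger ones not labelled. By the study's methods, the E18.5 and 9 wk mice of the first RRBS experiment were fed a chow with coconut oil. The P1 RRBS livers carry no such description, their titles also hold a tag for the age of 6Mo, the age label of P1 was used, and their difference from the other 2 ages cannot be told apart from a difference between experiments. Values are the percentage of reads in which a CpG was methylated, and differences are in percentage points. The files used here give no read count beside a value, and single values therefore carry no interval. The share of RRBS CpGs without a value in a library reached 0.193% at E18.5, 14.6% at P1 and 40.9% at 9 wk. The samples are whole livers, in which a change in the mix of cells cannot be told apart from a change of methylation within cells.

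Retinoid X receptors are nuclear receptors that bind DNA as pairs, either with each other or with partners such as the retinoic acid receptors, the PPARs, the liver X receptors, FXR, PXR, CAR, the vitamin D receptor and the thyroid hormone receptors. Through these partners they take part in the control of lipid, bile acid and drug metabolism in the liver. Rxra, Rxrb and Rxrg encode the alpha, beta and gamma forms. Methylated CpGs at a start site are commonly found where that start is not in use, but no transcript was measured here.

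The alternative start site of GENCODE lies at position 169548440 and opens an untranslated exon of 187 bp (chr1:169548440-169548626). CpG 1 and CpG 2 lie 9 and 4 bp upstream of it, within intron 2 of the longer transcript, and the other 8 lie in the untranslated exon, the last at 138 bp. RefSeq places the same start 44 bp further upstream, so that by RefSeq all 10 are downstream of it. The 200 bases before the RefSeq start are shown because they are the part of this promoter next to the measured CpGs. They are followed by short windows around the CpGs named most often in the text, all read 5′ to 3′ on the forward strand of mm9, with every CpG in capitals.
Upstream of the start, chr1:169548196-169548395: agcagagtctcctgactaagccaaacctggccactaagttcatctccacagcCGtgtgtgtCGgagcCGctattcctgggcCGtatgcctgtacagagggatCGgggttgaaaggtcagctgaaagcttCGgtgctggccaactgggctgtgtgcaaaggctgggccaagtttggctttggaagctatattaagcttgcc
CpG 1 and CpG 2, chr1:169548420-169548448: actgggagctgCGctcCGggcttgggctc
CpG 3 to CpG 5, chr1:169548445-169548472: gctcCGgaaccaCGCGcaacagaacttt
CpG 6, chr1:169548480-169548507: taaccagatgacaCGctgctaaaaggct
CpG 9 and CpG 10, chr1:169548561-169548590: ctgccttctcCGctcagCGctgggtctgtg

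The upstream window held 6 CpGs. Over the 300 bases that RefSeq's promoter table gives for each start (250 before it and 50 from it on; RefSeq sequence of GRCm38.p6), the alternative start of Rxrg had 9 CpGs and an observed over expected CpG ratio of 0.373. The first start of Rxrg had 13 CpGs and a ratio of 0.602, and the median over the 32841 windows in the table was 7 CpGs and a ratio of 0.384. The alternative start was therefore close to the median window in CpG content. On either strand, the alternative window held 1 match to TATANNAA at position -15 from the start, which 10.3% of all windows also hold. It held 1 match to AGGTCA, the hexamer of nuclear receptor sites, at -88 (16.3% of windows). It also held 1 match to CAGCTG, an E-box, at -84 (16.3% of windows), which overlaps the AGGTCA match. The strict TATA box (TATAAA, 13.6% of windows), the GC box (GGGCGG, 35.7%), a forkhead motif (TGTTTAC, 3.65%) and a C/EBP motif (TTGCGCAA, 0.183%) were matched in neither window of Rxrg. The CCAAT motif was matched at the first start alone, at -119 from it (37.4% of windows). A match describes letters and was not tested for binding.

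CpGs at the alternative start had intermediate to high methylation before birth and lost most of it between P5 and P20. Over the 10 CpGs, the mean of the CpG means was 67.2% at E18.5, 66.6% at P1, 58.8% at P5, 34.97% at P10, 22.2% at P15, 14.4% at P20 and 12.7% at 6 mo. The CpGs differed in level before birth, with means from 48.7% to 81.9% at E18.5, and lay within 10.1% to 15.01% at 6 mo. Of the whole fall between E18.5 and 6 mo, 1.10% had been reached at P1, 15.4% at P5, 59.1% at P10, 82.5% at P15 and 96.8% at P20. The fall was thus spread over the first weeks after birth, with its largest step between P5 and P10.

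**Figure D1:**
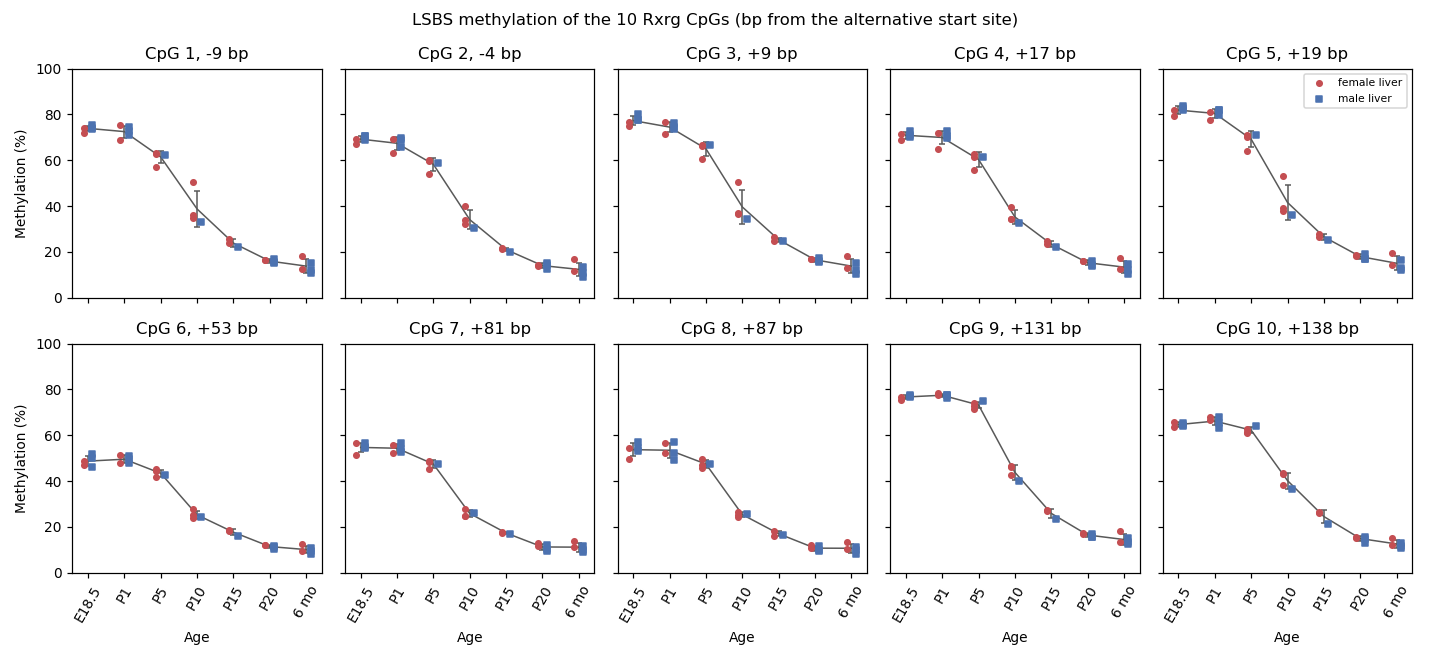
LSBS methylation (percent, y axis) of each of the 10 Rxrg CpGs against age, with each liver as a point, females as circles and males as squares, and the mean ± SD of each age as a line with bars. Every CpG fell from between 48.7% and 81.9% at E18.5 to between 10.1% and 15.01% at 6 mo, with livers of 1 age spread most at P10 in CpGs 1, 3 and 5.

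CpG 5 (chr1:169548459, 19 bp downstream of the start, in the untranslated exon) had the largest fall between E18.5 and 6 mo. Its 5 livers at E18.5 read 79.2, 81.8, 81.9, 82.8 and 83.7%, and its 5 livers at P1 read 77.5, 79.8, 81.1, 81.7 and 81.9%. These 2 ages overlapped. The 4 livers at P5 read 64.2, 70.3, 71.1 and 71.1%, all below those at P1. At P10 the 4 livers read 35.9, 38.0, 39.3 and 53.0%, where the highest was a female set well apart from the others. The 3 livers at P15 read 25.3, 26.4 and 27.9%. At P20 the 5 livers lay at 16.9, 16.9, 18.2, 18.7 and 18.9%, and at 6 mo at 12.1, 12.8, 14.3, 16.6 and 19.4%, so that the last 2 ages overlapped. At E18.5 the mean was 81.9% ± 1.70 (SD, n = 5), and by 6 mo it was 15.01% ± 2.98 (SD, n = 5).

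CpG 6 (chr1:169548493, 53 bp downstream, same exon) had the smallest fall in points. At E18.5 its livers read 46.0, 47.0, 49.0, 49.9 and 51.6%, and at P1 47.8, 47.9, 49.8, 50.9 and 51.4%. At P5 they read 41.7, 42.5, 44.3 and 45.1%, below every liver at P1. At P10 they read 24.05, 24.3, 25 and 27.6%, and at P15 16.2, 18.1 and 18.8%. The values at P10 stood close together here, unlike those of CpG 5. At P20 they read 10.3, 11.3, 11.6, 11.9 and 12.1%, and at 6 mo 8.38, 9.38, 9.41, 10.8 and 12.5%. Although it changed by -38.6 points against -66.9 points at CpG 5, CpG 6 kept 20.7% of its E18.5 level at 6 mo and CpG 5 kept 18.3%.

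CpG 1 (chr1:169548431), the first by position, lies upstream of the GENCODE start. Its livers read 72.05, 73.8, 74.0, 74.2 and 75.5% at E18.5 and 68.8, 71.0, 72.9, 74.3 and 75.3% at P1. At P5 they read 57.2, 62.4, 62.8 and 63.0%. At P10 they read 33.1, 34.9, 36.1 and 50.7%, again with 1 female well above the rest. From P15 on the livers of an age stood closer, at 22.2, 23.7 and 25.5%, and at P20 they read 14.96, 15.4, 16.3, 16.4 and 16.7%. At 6 mo they read 10.6, 11.9, 12.7, 15.3 and 18.4%.

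CpG 10 (chr1:169548578), the last by position, began its fall later. Its livers read 63.4, 64.2, 64.5, 65.2 and 65.9% at E18.5 and 63.3, 65.4, 66.6, 67.8 and 67.9% at P1. At P5 they read 60.9, 61.4, 62.8 and 63.9%, which overlapped with P1. At P10 they read 36.3, 38.2, 42.99 and 43.4%, and at P15 21.3, 25.9 and 26.4%. The steepest step was the same as at the other CpGs. At P20 they read 13.1, 14.8, 15.3, 15.6 and 15.8%, and at 6 mo 10.9, 11.7, 12.3, 13.0 and 15.02%.

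The CpGs fell into 3 stretches by position that differed in starting level and in timing. The stretches were drawn after the values were seen, and the difference between them was not tested, because the values of 1 liver could not be joined across CpGs. CpGs 1 to 5 averaged 74.6% at E18.5, CpGs 6 to 8 averaged 52.4%, and CpGs 9 and 10 averaged 70.7%. The middle stretch was lower at every age, down to 10.6% at 6 mo against 13.6% and 13.5%. As a share of its own E18.5 level, each of the 10 CpGs kept between 17.8% and 20.7% at 6 mo. At 6 mo the lower start of the middle stretch was thus kept roughly in proportion, with 19.9% to 20.7% left at CpGs 6 to 8 and 17.8% to 19.4% at the others. The last stretch had reached 5.17% of its change at P5, against 19.4% in the first stretch and 15.1% in the middle one, and 50.1% at P10 against 60.4% and 64.4%. By linear interpolation between the measured ages, 50% of the change was reached between postnatal days 8.36 and 8.87 at CpGs 1 to 8, at day 9.70 at CpG 9 and at day 10.5 at CpG 10. With any 1 of the extreme P5 or P10 values left out, these days ranged from 8.27 to 9.21 at CpGs 1 to 8 and from 9.54 to 10.9 at CpGs 9 and 10.

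**Figure D2:**
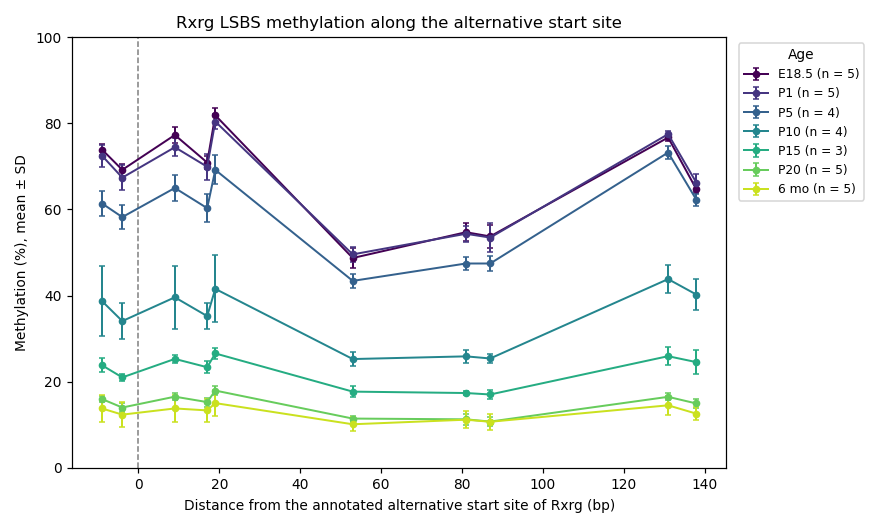
Mean methylation ± SD (percent, y axis) of the 10 Rxrg CpGs against their distance in bp from the annotated alternative start site (dashed line), with 1 line for each age and the number of livers in the key. CpGs 6 to 8 lay below the others at every age, and at P5 the line had dropped more at CpGs 1 to 5 than at CpGs 9 and 10.

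To ask when methylation changed after birth, the ages between P1 and P20 were compared by limma over all 166 LSBS CpGs. A call required more than 5 points of difference and a Benjamini-Hochberg adjusted p of 0.1 or less. These livers were not used in selecting the locus, although they lie within the same span of development. Between P1 and P20, 10 of 10 Rxrg CpGs were called lower, where 17.5% of all 166 CpGs were (12.2% of the 156 CpGs of other loci). The changes ranged from -62.5 to -38.1 points, and the livers of P1 and P20 did not overlap at any of the 10. CpG 5 changed by -62.5 points (SE 2.13, adjusted p = 1.29e-19) and CpG 6 by -38.1 points (SE 1.00, adjusted p = 5.44e-22). CpG 1 changed by -56.5 points (SE 2.18, adjusted p = 1.88e-18) and CpG 10 by -51.3 points (SE 1.21, adjusted p = 6.97e-23).

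Between P1 and P5, 8 of 10 Rxrg CpGs were called lower (8.43% of all CpGs). The livers of both ages did not overlap at 8 of 10, which is another set, since they overlapped at CpG 8 and CpG 10. CpG 9 and CpG 10 were the 2 not called, with differences of -4.27 points (SE 1.16, adjusted p = 0.0123) and -3.97 points (SE 1.28, adjusted p = 0.0418), which pass the p but not the 5 points. The largest steps were at CpG 5, which fell by 11.2 points (SE 2.26, adjusted p = 0.000947), and CpG 1, which fell by 11.1 points (SE 2.32, adjusted p = 0.00118). At CpGs 1, 3, 4 and 5 the lowest P5 liver, a female, stood apart from the other 3. Leaving out the lowest P5 value at each CpG gave the same count of 8. Among females alone 4 were called. By exact permutation tests (two-sided) 0 were called, with an adjusted p of 0.101 at CpGs 1, 5 and 6 and 0.180 at CpG 10. With 5 against 4 livers, the number of possible splits limits how small such a p can be.

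Between P5 and P10, 10 of 10 were called lower (15.1% of all CpGs), with changes of -29.4 to -18.2 points. CpG 9 (chr1:169548571, 131 bp downstream) had the largest step, falling by 29.4 points (SE 1.22, adjusted p = 1.38e-16), and CpG 6 had the smallest. Between P10 and P15, 10 of 10 were called lower (18.7% of all CpGs), with changes of -17.9 to -7.57 points, again with the largest step at CpG 9. By exact permutation tests 0 were called in this step, with an adjusted p of 0.136 at CpGs 1, 6 and 10. The number of possible splits of 4 against 3 livers limits how small such a p can be. Between P15 and P20, 10 of 10 were called lower (15.7% of all CpGs), with changes of -9.60 to -6.11 points and the largest step at CpG 10 (SE 1.39, adjusted p = 1.80e-05). In each of these 3 steps the livers of both ages did not overlap at any of the 10 CpGs. In the step between P15 and P20, 3 of 10 were called among females alone. Without the highest P15 value, CpG 1 was not called in that step (limma, adjusted p = 0.101) and the other 9 were.

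The remaining steps hold ages used in choosing the locus and have no test. Between E18.5 and P1 the means moved by -2.84 to 1.54 points, with 7 CpGs lower and 3 higher, and the 2 ages overlapped at all 10 CpGs. Between P20 and 6 mo the means moved by -2.92 to -0.0443 points, lower at all 10, and the ages again overlapped at each. Relative to the level at the start of each step, the mean over the 10 CpGs lost 11.7% between P1 and P5, 40.5% between P5 and P10, 36.4% between P10 and P15, 35.1% between P15 and P20 and 11.9% between P20 and 6 mo. In points the step between P5 and P10 was the largest, whereas in proportion the 3 steps from P5 to P20 lay between 35.1% and 40.5%.

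The sexes were compared at the Rxrg CpGs with age as a term. None of the 10 CpGs was called (0% of all 166 CpGs; limma), and 1 of the 10 had an unadjusted p up to 0.05, as did 6 of the 166. All 10 estimates were lower in males, by at most 1.53 points at CpG 10 (SE 0.669, adjusted p = 0.692). The change between P1 and P20 did not pass the test of a difference between the sexes at any of the 10 (interaction term, smallest adjusted p = 0.952, none with an unadjusted p up to 0.05). At CpG 5 it was -60.9 points in females and -63.6 points in males, a difference of -2.68 points (SE 1.70). The single male was the lowest liver at 7 of 10 CpGs at P10 and at 9 of 10 at P15, and was the highest at 3 of 10 at P5. These counts rest on 1 male liver per age read at neighbouring CpGs, and are not 10 separate observations.

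To see whether other measured loci followed the same course, the 7 age means of Rxrg were set beside those of the other 16 LSBS loci. This likeness is a description over 7 points that share livers and assay. Pck1, the cytosolic enzyme that commits carbon to gluconeogenesis, was most like Rxrg (5 promoter CpGs, Pearson r = 0.996). Next came Mttp, which loads lipid onto nascent lipoproteins (4 CpGs at an alternative start, r = 0.993), and Acsl1, which activates long-chain fatty acids (6 promoter CpGs, r = 0.992). Mttp and Acsl1 also had the largest losses after Rxrg, with changes of -37.1 and -34.8 points between E18.5 and 6 mo, closely followed by Nr1i3 with -34.8 points. Of the 16 loci, 4 fell by more than 5 points, 4 rose by more than 5 points and 7 stayed under 5% at every age.

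The means of these 3 loci were lower than that of Rxrg at E18.5 and higher at 6 mo. The mean of Pck1 was 53.3% at E18.5, 56.9% at P1, 36.9% at P10, 22.5% at P20 and 21.5% at 6 mo. That of Mttp was 62.0% at E18.5, 45.5% at P10 and 24.8% at 6 mo. That of Acsl1 was 53.9% at E18.5, 37.7% at P10 and 19.2% at 6 mo. Rxrg kept 18.9% of its E18.5 level at 6 mo, Acsl1 35.5%, Mttp 40.1% and Pck1 40.3%. At P10 Rxrg had reached 59.1% of its change, Pck1 51.5%, Acsl1 46.7% and Mttp 44.5%. The day of 50% of the change was 8.95 for the mean of Rxrg, 9.81 for Pck1, 10.6 for Acsl1 and 10.9 for Mttp. Within Rxrg, CpG 10 (day 10.5) was close to the mean of Acsl1, and the difference in timing between loci was not tested.

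**Figure D3:**
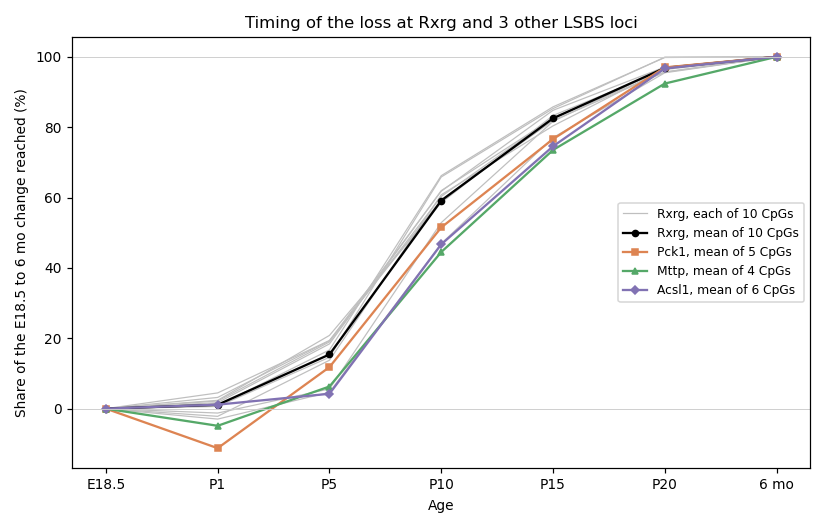
Share of the change between E18.5 and 6 mo that had been reached at each age (percent, y axis), for each of the 10 Rxrg CpGs (thin grey lines) and for the means of Rxrg, Pck1, Mttp and Acsl1 (marked lines). At P10 the mean of Rxrg stood at 59.1% and the other 3 between 44.5% and 51.5%, and values below 0 are ages at which a locus was above its E18.5 level.

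Away from the alternative start, the Rxrg CpGs read by RRBS were higher in adults. Of the 12, 10 lie in intron 1, from 5046 to 11231 bp downstream of the first start, and 2 in intron 9. None lies within the LSBS stretch, and the nearest is 8685 bp upstream of it, so the 2 assays share no Rxrg CpG. The CpGs at positions 169533604 and 169533605 are the 2 strands of 1 CpG dinucleotide. Between E18.5 and 9 wk the means of all 12 were higher at 9 wk, by 6.24 to 28.4 points, with a median of 14.3 points. Over all 249729 CpGs tested the median change was 9.68 points. By limma, 9 of the 12 were called higher, where 58.5% of all CpGs tested were, and 0 were called lower (6.46% of all).

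The CpG at chr1:169569049, in intron 9, gained most. It read 42.9, 50.4, 51.7, 57.6 and 63.2% in the 5 E18.5 libraries. At P1 its lowest, median and highest values were 29.4, 53.1 and 71.4% (n = 9), and at 9 wk 68.8, 80 and 100% (n = 8). The E18.5 and 9 wk libraries did not overlap. Its mean rose from 53.1% ± 7.67 (SD, n = 5) to 81.5% ± 9.66 (SD, n = 8) between these ages, by 28.4 points (SE 4.77, adjusted p = 0.000184). From P1 to 9 wk it rose by 30.6 points (SE 4.85, adjusted p = 5.10e-05), while E18.5 and P1 differed by -2.18 points (SE 5.21, adjusted p = 0.860).

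The CpG at chr1:169537573, in intron 1, had the second largest gain. It read 56.8, 63.2, 64.3, 69.4 and 75.5% at E18.5. At P1 its lowest, median and highest values were 66.7, 76.5 and 83.3% (n = 7), and at 9 wk 80, 92.6 and 100% (n = 8). It too had separate ranges at E18.5 and 9 wk, which only these 2 of the 12 CpGs had. Its mean rose by 26.6 points between E18.5 and 9 wk (SE 3.83, adjusted p = 4.79e-05). From P1 to 9 wk it was not tested, since fewer than 80% of those libraries had a value.

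The CpG nearest to the alternative start, at chr1:169539746 in intron 1, had the smallest difference between E18.5 and 9 wk. It read 62.1, 62.3, 66.2, 68.3 and 74.1% at E18.5. At P1 the values were 56.0 to 75.0% with a median of 60.6% (n = 8), and at 9 wk 61.1 to 85.7% with a median of 73.3% (n = 7). The 3 ages overlapped. The mean was 6.24 points higher at 9 wk than at E18.5 (SE 4.21, adjusted p = 0.213).

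**Figure D4:**
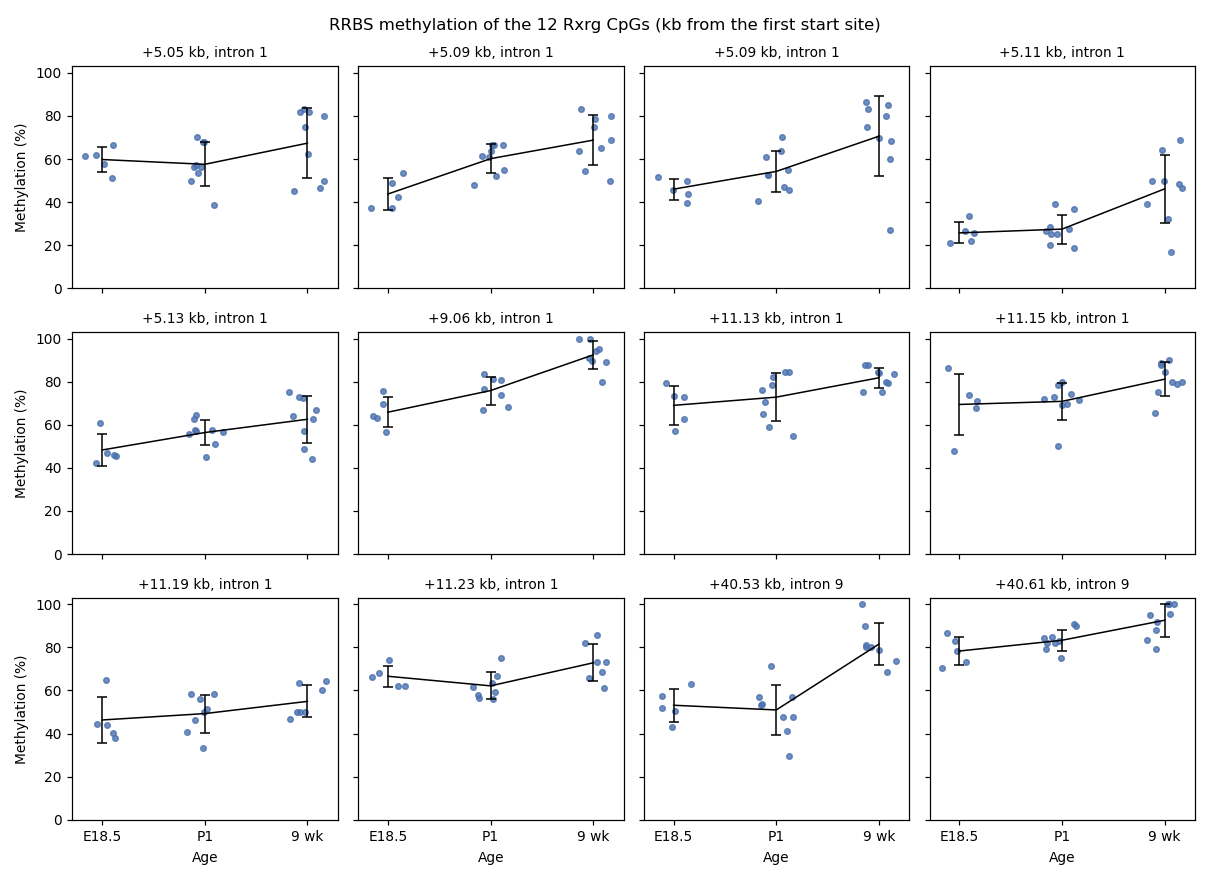
RRBS methylation (percent, y axis) of the 12 Rxrg CpGs at E18.5, P1 and 9 wk, with each library as a point and the mean ± SD as a line with bars, and with the distance from the first start site in kb above each plot. The 9 wk mean was above the E18.5 mean in all 12, by 6.24 to 28.4 points, and in 10 of them the libraries of both ages overlapped.

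Between E18.5 and P1, 1 of the 12 was called higher (0.54% of all CpGs tested) and 0 lower (0.0119% of all). The call was at position 169533604, which rose by 16.4 points (SE 3.93, adjusted p = 0.0981). The call was lost without P1 replicate 6, 7, 8 or 9 or without any 1 of the 5 E18.5 replicates (0 of 12 called in each case). Over all CpGs tested, 1448 were called higher with every library, and 1204 without P1 replicate 7. In each of the other cases only 1 CpG was called higher over all, so nearly all calls of this comparison were lost. Between P1 and 9 wk, 6 of the 9 CpGs that could be tested were called higher (36.1% of all) and 0 lower (7% of all). The shares called higher for Rxrg were thus above those over all CpGs in each comparison, on 9 to 12 CpGs of 1 gene. Between E18.5 and P1 this rests on the 1 call above, and the difference was not tested. Several 9 wk libraries had few values here, with 8 of the 12 CpGs lacking one in replicate 1 and 6 in replicate 9.

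The gain of the RRBS CpGs moved with a gain in the whole libraries. Over the CpGs above 80% on average, library means were 81.7 to 83.2% at E18.5, 84.6 to 89.1% at P1 and 92.3 to 93.2% at 9 wk. When each library was divided by its mean over CpGs above 80%, the median change between E18.5 and 9 wk over all CpGs went from 9.68 to 0.52 points, and the share of calls that were higher from 90.1% to 56.2%. The median of the 12 Rxrg CpGs went from 14.3 to 5.84 points, with 10 higher and 2 lower. Of the 12, 5 were called higher in place of 9, where 17.2% of all CpGs tested were after scaling. Between P1 and 9 wk, 2 of 9 were called higher in place of 6 under this scaling, where 13.2% of all CpGs tested were. The 2 CpGs with the largest gains were called under both, at 20.4 and 17.2 points after scaling, while the nearest to the alternative start turned to -2.26 points and was not called under either.

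**Figure D5:**
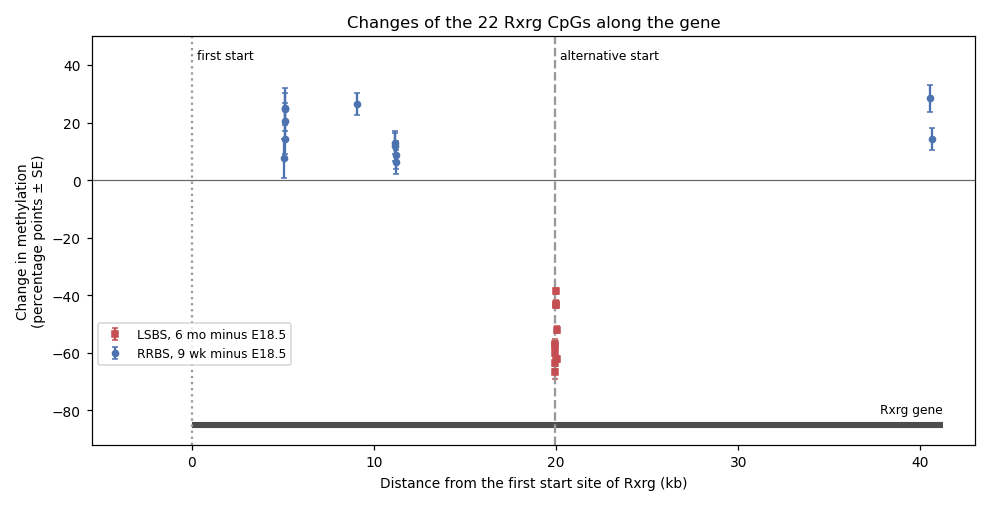
Change in methylation (percentage points ± SE, y axis) of the 22 Rxrg CpGs against the distance from the first start site in kb, as RRBS at 9 wk minus E18.5 (circles) and LSBS at 6 mo minus E18.5 (squares), with the gene as a bar and both start sites as vertical lines. The 10 CpGs at the alternative start lay between -66.9 and -38.6 points and the 12 others between 6.24 and 28.4 points.

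Losses at the alternative start and gains elsewhere in Rxrg come from different assays and different adult ages. At E18.5, 3 of the 5 LSBS titles hold a number that also stands in an RRBS title, so the assays may share animals at that age. At E18.5 the RRBS CpGs of Rxrg averaged 56.0% and the LSBS CpGs 67.2%. In adults the RRBS CpGs averaged 72.7% at 9 wk and the LSBS CpGs 12.7% at 6 mo. At 9 wk the lowest mean among the 12 RRBS CpGs was 46.1%, at position 169533626 in intron 1.

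The genes of the other retinoid X receptors and of their partners were read in the same RRBS comparison, as background to the pathway. Of 16 genes, 15 had a CpG tested between E18.5 and 9 wk, with 232 CpGs from 5 kb upstream of the start to the gene end. Of these, 43.5% were called higher and 25.9% (60 CpGs) lower, beside 58.5% and 6.46% over all CpGs. The median change was 4.90 points beside 9.68 over all. Under the scaling between libraries the counts turned to 37 higher and 92 lower, where 17.2% of all CpGs tested were called higher and 13.4% lower.

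Ppara, the fatty acid sensor of the liver, had the largest mean change, with 7 of 8 CpGs called lower and means of 59.3% at E18.5 and 19.3% at 9 wk. Rxra, the main retinoid X receptor of the liver, had 20 of 23 CpGs called lower and 2 higher, with means of 41.5% and 21.2%. Rarg, a retinoic acid receptor, had 9 of 15 CpGs called higher and 0 lower, with a mean change of 11.4 points. That count is near the share over all CpGs tested, of which 58.5% were called higher and 6.46% lower. Thus of the 3 retinoid X receptor genes, Rxra lost methylation at most of its RRBS CpGs and Rxrb had 1 of 7 CpGs called in each direction. Rxrg had 9 of 12 called higher, or 5 of 12 after scaling, where 17.2% of all CpGs were. The mean changes of Ppara, Rxra and Rarg had the same sign after scaling, at -45.4, -24.5 and 6.24 points.

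The remaining named partners have a locus in the LSBS data as well. In the same RRBS comparison, 58.5% of all CpGs tested were called higher and 6.46% lower. Nr1i2, which encodes the drug sensor PXR, had 4 of 6 RRBS CpGs called lower and 1 higher (mean change -13.2 points), whereas its 5 LSBS promoter CpGs averaged 76.7% at E18.5 and 94.4% at 6 mo. The mean over its RRBS CpGs ranged from -21.0 to -4.62 points over the alternatives and single libraries left out, with the number of CpGs that passed the filter. Nr1i3, which encodes the drug sensor CAR, had 2 of 4 RRBS CpGs called higher (mean change 3.15 points), but this mean was -1.11 points with the 9 wk libraries deposited first and -7.22 points after scaling. Its 4 LSBS promoter CpGs averaged 66.2% at E18.5 and 31.4% at 6 mo. Nr1h2, which encodes liver X receptor beta, had 5 of 29 RRBS CpGs called higher, a share below that over all CpGs. Its mean change was 3.07 points from 89.7% at E18.5, or -8.13 points after scaling. Its 17 LSBS CpGs averaged 0.60% at E18.5 and 0.65% at 6 mo.

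The liver before birth is also a site of blood formation, so genes of blood-forming cells and of hepatocytes were read beside Rxrg. Of the 12 blood-forming genes listed, 9 had CpGs tested. Of their 149 CpGs, 79 (53.0%) were called higher and 26 (17.4%) lower between E18.5 and 9 wk, with a median change of 8.65 points. These genes differed, and Runx1 alone held 64 of the CpGs. Vav1 had 13 of 15 called higher and 0 lower, Lyl1 7 higher and 8 lower, and Nfe2 5 of 6 lower and 0 higher. Of the 10 hepatocyte genes listed, 6 had CpGs tested. Of their 51 CpGs, 10 (19.6%) were called higher and 25 (49.0%) lower, with a median change of -11.2 points. Hnf4a alone held 22 of these CpGs, with 11 called lower and 5 higher, and Sds held 13, with 5 lower and 2 higher. The hepatocyte genes include Afp, which the study used as a marker of hepatocyte precursors, with 3 of 6 CpGs called in each direction. Over all CpGs 58.5% were higher and 6.46% lower. After scaling the counts were 40 higher and 42 lower in blood-forming genes and 5 higher and 30 lower in hepatocyte genes. Over all CpGs tested, 17.2% were then called higher and 13.4% lower. The part of cell mix in the changes of Rxrg was not tested.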

How the data were processed

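The authors digested DNA with MspI for RRBS, or amplified bisulfite-treated DNA for LSBS, and aligned reads to mm9 with Bismark 0.7.6 and Bowtie2. The deposited RRBS table gives, per CpG and library, the methylated fraction of reads, with CpGs under 10 reads set to missing. CpGs under 10% methylated in all samples had been removed by the authors, so shares over all RRBS CpGs do not include them. The deposited LSBS values are a percent per CpG and liver, whose read minimum at these loci is not given in the sources used here. The LSBS rows carry age and sex but no liver name, and 830 LSBS values at an age without a labelled sample were not used here. The deposited summary tables of the authors' own comparisons hold p-values and were not used here.

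Fractions were turned to percent. limma 3.58.1 in R 4.3.3 was run on percent methylation, two-sided, with all 7 LSBS ages in 1 fit over 166 CpGs, or with the RRBS libraries of the 2 ages compared. RRBS CpGs needed a value in 80% of those libraries and 10% methylation in at least 1. Calls needed a Benjamini-Hochberg adjusted p up to 0.1 and over 5 points. The fits were tested on simulated data. Python 3.11.15, pandas 2.3.3, scipy 1.17.1 and matplotlib 3.10.9 were used for summaries and plots.

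The members and gene lists were chosen with earlier results of these data known. Named in full are the Rxrg LSBS CpGs with the largest and the smallest change and the first and last by position, the 2 RRBS CpGs with the largest gain (none lost between E18.5 and 9 wk) and the nearest to the amplicon, the 3 loci most like Rxrg, the 2 with the largest loss after it, and 6 partner genes, being those with the largest mean change among genes with at least 5 CpGs tested and those with an LSBS locus. CpG 9, Rxrb and position 169533626 were named after their values were seen. Alternatives covered the scale, the test, the spread estimate, the threshold, the sexes, low or missing values, 9 wk libraries, scaling and single samples.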

Additional observations from a re-analysis of the deposited data

Results flagged for a closer look

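In 96 groups of 4 to 10 samples at the Rxrg CpGs, 10 values stood apart from the rest of their group, where chance gives about 1 in 20 groups. At P5 the lowest liver was 57.2% at CpG 1 (the others 62.4 to 63.0%), 60.5% at CpG 3 (66.3 to 66.7%), 55.5% at CpG 4 (61.5 to 62.6%) and 64.2% at CpG 5 (70.3 to 71.1%). At P10 the highest liver was 50.7% at CpG 1 (33.1 to 36.1%) and 50.3% at CpG 3 (34.5 to 37.01%). Each of these was a female. Whether they were 1 liver could not be read from values without liver names. In RRBS, the lowest 9 wk library at position 169533605 was 27.3% (the others 60 to 86.4%), and the lowest P1 library at 169539670 was 50% (69.2 to 80%). The highest E18.5 library was 60.9% at 169533643 (42.4 to 46.8%) and 65.0% at 169539700 (37.7 to 44.4%).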

How the results depend on the processing

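All 10 LSBS CpGs of Rxrg were called lower between P1 and P20 under each alternative run, and the count of calls between P5 and P10 was also 10 under each. By exact permutation tests 0 were called between P1 and P5 and 0 between P10 and P15, where the small groups limit how low such a p can go. The differences themselves are the same as in limma. Among females only, 4 were called between P1 and P5 and 3 between P15 and P20. No paired analysis was possible because the LSBS rows carry no replicate number and the RRBS libraries of different ages are different animals.

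Of the 12 RRBS CpGs, the count called higher was 0 with a difference over 30 points and 5 with scaling between libraries for E18.5 to 9 wk. For P1 to 9 wk, with 9 tested, these counts were 1 and 2. Over all CpGs tested, the shares called higher were 4.69% and 17.2% for E18.5 to 9 wk, and 3.12% and 13.2% for P1 to 9 wk. The count for E18.5 to P1, which is 1, was 0 on the logit scale, at adjusted p up to 0.05, over 30 points, with scaling and with a trend in the variance, and 0 to 1 with a replicate left out. Over all CpGs tested, the count called higher went from 1448 to 1 on the logit scale, 1 at adjusted p up to 0.05, 2 over 30 points and 1 with scaling. With a trend in the variance it was 1872. No Rxrg CpG had a value in every library of a comparison with 9 wk, so that alternative gave no value there.

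For CpGs of RXR partners, counts higher and lower were 22 and 28 with a value in every library, 16 and 23 over 30 points, 37 and 92 with scaling, and 8 and 0 within 1 kb of the start. For blood-forming genes they were 34 and 4, 20 and 14, 40 and 42, and 2 and 0, and for hepatocyte genes 5 and 5, 3 and 12, 5 and 30, and 1 and 1. Over all CpGs tested, 61.7% were called higher and 6.67% lower with a value in every library. The shares were 4.69% and 2.24% over 30 points, and 17.2% and 13.4% with scaling. Over 30 points the CpGs tested were the same 232, 149 and 51. Fewer were tested with a value in every library or within 1 kb, and no share over all CpGs near start sites is given here. With a library left out, when fewer CpGs pass the filter, the lower counts ranged from 14 to 24 for blood-forming genes and from 16 to 26 for hepatocyte genes. After scaling the mean change was -8.13 points for Nr1h2 and -7.22 for Nr1i3, and for Nr1i3 it was -1.11 with the 9 wk libraries deposited first, when 6 CpGs passed the filter in place of 4. The cause was not tested. By Spearman rho, all 3 loci most like Rxrg were the same. Unknown depth limits how small a difference can be read.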
